A study of Mus musculus with 6 samples.

Results

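A set of 9 NK receptor genes was described across NK, ILC1, CD8 and other T cells of mouse liver, namely Ncr1, Klra3, Klra7, Klri2, Klre1, Klrc1, Klrc2, Cd160 and Cd244a. They were taken by symbol from a fixed list of 9, and all 9 were found in each of the 3 deposited matrices, which together held 5301 genes. The measurements were droplet 3' single-cell RNA-seq of CD45+ cells sorted from liver pieces of Balb/c mice after injection of the murine breast tumour line 4T07 into the heart. The tumour cells carried either a control (Ctrl) or a Tim3 knockdown (Tim3-KD), and the sites were tissue labelled as holding no tumour (adjacent tissue, AT) on day 3, micrometastasis on day 3 and macrometastasis on day 12. Each of the 6 groups had 1 library, made from pooled mice, so 2 groups could not be tested against each other. With the 3 sites as pairs of Tim3-KD and Ctrl, an exact two-sided permutation test cannot go below p = 0.25, so none was run over sites. The knockdown was made in the tumour line and not in the sorted CD45+ cells, so no level of Havcr2 (Tim3) in the sorted cells checks the labels. Age of the mice was not given in the sources used here.

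The deposited values were scaled scores, which were turned back into UMIs (unique molecular identifiers, the counted molecules). Levels are given as counts per 1000000 (CPM), the UMIs of a gene relative to the UMIs of all genes in the same cells, and all intervals are 95% intervals of counting error only. The libraries held 542 to 5502 cells, 23008 in all, with a median of 6300 to 10248 UMIs per cell, and 59 barcodes occurred in more than 1 library (119 cells, 2 of them NK-like). Of all cells, 2727 fell in T and NK clusters, which were built without the 9 genes. These were divided into NK-like (446 cells), CD8 T-like (361), Cxcr6 T-like (470), naive T-like (439), naive T-like with Cd8b1 (255) and CD4 T-like (254) cells. A cluster led by Itga1 and Xcl1 (158 cells) and clusters that were cycling (133), marked by Blk and Trdc (67) or held Cd79a (144) were left without a cell type name. AT Tim3-KD held only 10 NK-like and 1 CD8 T-like cell, so comparisons needed at least 20 cells in both libraries.

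NK cells are innate lymphocytes that read activating and inhibitory receptors for each target cell and kill when activation prevails. Ncr1 (NKp46) is an activating receptor by which mouse NK cells and ILC1, their liver-resident relatives, are commonly recognised. Klra3 (Ly49C) and Klra7 (Ly49G2) are lectin-like inhibitory receptors for classical MHC class I, Klre1 forms pairs with Klri1 and Klri2, and Klrc1 (NKG2A, inhibitory) and Klrc2 (NKG2C, activating) each pair with CD94, the product of Klrd1, to read the non-classical MHC molecule Qa-1. Cd160 is a surface receptor for HVEM and MHC class I found on NK and intraepithelial lymphocytes, and Cd244a (2B4) is a SLAM family receptor for CD48. Ly49 gene content differs between mouse strains, and the reference genome is C57BL/6 whereas these mice were Balb/c, so the UMIs assigned to Klra3 and Klra7 may include other Ly49 genes of Balb/c.

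Of the genes, 6 lie in the NK gene complex on chromosome 6 (GRCm38), in the order Klre1 (129577905 to 129585827, plus strand), Klrc2 (129647496 to 129660689), Klrc1 (129666015 to 129678973), Klri2 (129729041 to 129740484), Klra7 (130218605 to 130233322) and Klra3 (130323289 to 130337574), the last 5 on the minus strand. Klrc2 and Klrc1 were 5.33 kb apart, and Klri2 and Klra7 478 kb apart. Ncr1 lies on chromosome 7 (4337724 to 4345164, plus strand), Cd160 on chromosome 3 (96798763 to 96829351, minus strand) and Cd244a on chromosome 1 (171559193 to 171609746, plus strand). All 9 are annotated as protein coding. Klrc1 and Klrc2 are close copies. Of all 90-base windows of the Klrc1 transcripts, the length of the sequenced read, 18.6% also occurred in a transcript of Klrc2, and 8.75% of those of Klrc2 occurred in Klrc1 or Klrc3. The share was 3.33% for Klra7 (Klra13-ps), 2.83% for Klra3 (Klra9, Klra10), 0.131% for Klri2 (Klri1) and 0 for the other 4 genes. In the last 500 bases of the transcripts, where 3' reads mostly fall, the share was 21.9% for Klrc1, 6.36% for Klrc2, 6.57% for Klra7, 5.15% for Klra3 and 0 for Klri2. How the counting treated such reads was not given for single genes, so the separation of Klrc1 from Klrc2, and of Klra7 and Klra3 from the genes named, is uncertain to this extent.

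Promoter sequences are shown for 4 genes: Klrc1 and Klrc2, whose levels followed each other most closely over the classes, and Ncr1 and Cd160, whose levels ranked NK-like cells first and last among the 4 classes of interest. Each runs from 250 bases before to 50 after a transcript start in RefSeq (GRCm38.p6), 5′ to 3′ on the strand of the gene. Capitals mark TGTGGT or its reverse complement ACCACA (the core of RUNX sites), GGTGTGA or TCACACC (T-box) and CAGGAAG or CTTCCTG (ETS), searched on both strands with no overlap among them. They are Klrc1 chr6:129678924-129679223 (minus), Klrc2 chr6:129660507-129660806 (minus), Ncr1 chr7:4337465-4337764 (plus) and the first of the Cd160 promoters, chr3:96814472-96814771 (minus).
Klrc1: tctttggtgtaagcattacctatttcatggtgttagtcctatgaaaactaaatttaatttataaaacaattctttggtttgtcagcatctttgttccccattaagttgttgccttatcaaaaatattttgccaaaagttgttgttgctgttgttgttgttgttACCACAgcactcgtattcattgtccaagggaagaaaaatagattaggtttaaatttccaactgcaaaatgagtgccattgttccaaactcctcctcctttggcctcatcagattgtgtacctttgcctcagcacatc
Klrc2: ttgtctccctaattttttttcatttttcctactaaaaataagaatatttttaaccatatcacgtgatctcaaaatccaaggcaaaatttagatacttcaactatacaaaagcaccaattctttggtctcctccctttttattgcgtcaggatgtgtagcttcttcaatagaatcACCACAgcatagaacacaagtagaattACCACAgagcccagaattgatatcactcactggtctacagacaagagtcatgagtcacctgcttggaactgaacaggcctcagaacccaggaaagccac
Ncr1: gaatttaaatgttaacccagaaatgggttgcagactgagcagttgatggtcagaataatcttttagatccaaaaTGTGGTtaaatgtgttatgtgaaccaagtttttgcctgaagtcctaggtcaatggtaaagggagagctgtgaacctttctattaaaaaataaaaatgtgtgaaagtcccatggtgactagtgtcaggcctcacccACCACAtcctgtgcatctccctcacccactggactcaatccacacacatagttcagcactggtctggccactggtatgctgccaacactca
Cd160: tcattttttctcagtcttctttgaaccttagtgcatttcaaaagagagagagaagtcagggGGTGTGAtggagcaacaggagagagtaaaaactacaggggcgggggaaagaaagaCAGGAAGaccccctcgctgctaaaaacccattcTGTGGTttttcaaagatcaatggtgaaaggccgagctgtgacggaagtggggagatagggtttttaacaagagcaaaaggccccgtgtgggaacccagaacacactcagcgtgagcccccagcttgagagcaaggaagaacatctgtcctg
The RUNX letters occurred in 8 of 13 promoters of the genes (5 of the 8 genes with an entry, Ncr1, Klre1, Klrc1, Klrc2 and Cd160) and in 16.8% of all 32851 RefSeq promoters of the same length. The promoters of Ncr1 overlap each other and hold the same matches, as do those of Klrc2, so the 13 are not independent. The T-box letters occurred in 1 of 13 (Cd160) and in 3.98% of all, and the ETS letters in the same 1 of 13 and in 13.3% of all. Klri2 had no entry. A match of letters is a description and not a binding site. The Klrc1 promoter and the Klrc2 promoter shown were identical at 60.5% of aligned bases, and Klra3 and its closer Klra7 promoter at 84.5%.

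Of the 9 genes 5, Ncr1, Klra3, Klra7, Klri2 and Klre1, had their highest median level in NK-like cells, Klrc1 and Klrc2 had it in CD8 T-like cells, and Cd160 and Cd244a in the Itga1 Xcl1 cluster. In naive T-like cells all 9 were at most 3.11 CPM over the 6 libraries together. In B-like cells, which should lack these receptors, the highest was Cd244a at 1.69 CPM, and in mature neutrophil-like cells no gene other than Cd244a passed 0.182 CPM. The plot of levels by class and library shows the NK-like libraries above every other class for Klra3 and Klra7. For Ncr1 the NK-like cells and the Itga1 Xcl1 cluster overlapped and both lay above the T cell classes, and for Klrc2 and Cd244a neighbouring classes overlapped.

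**Figure D1:**
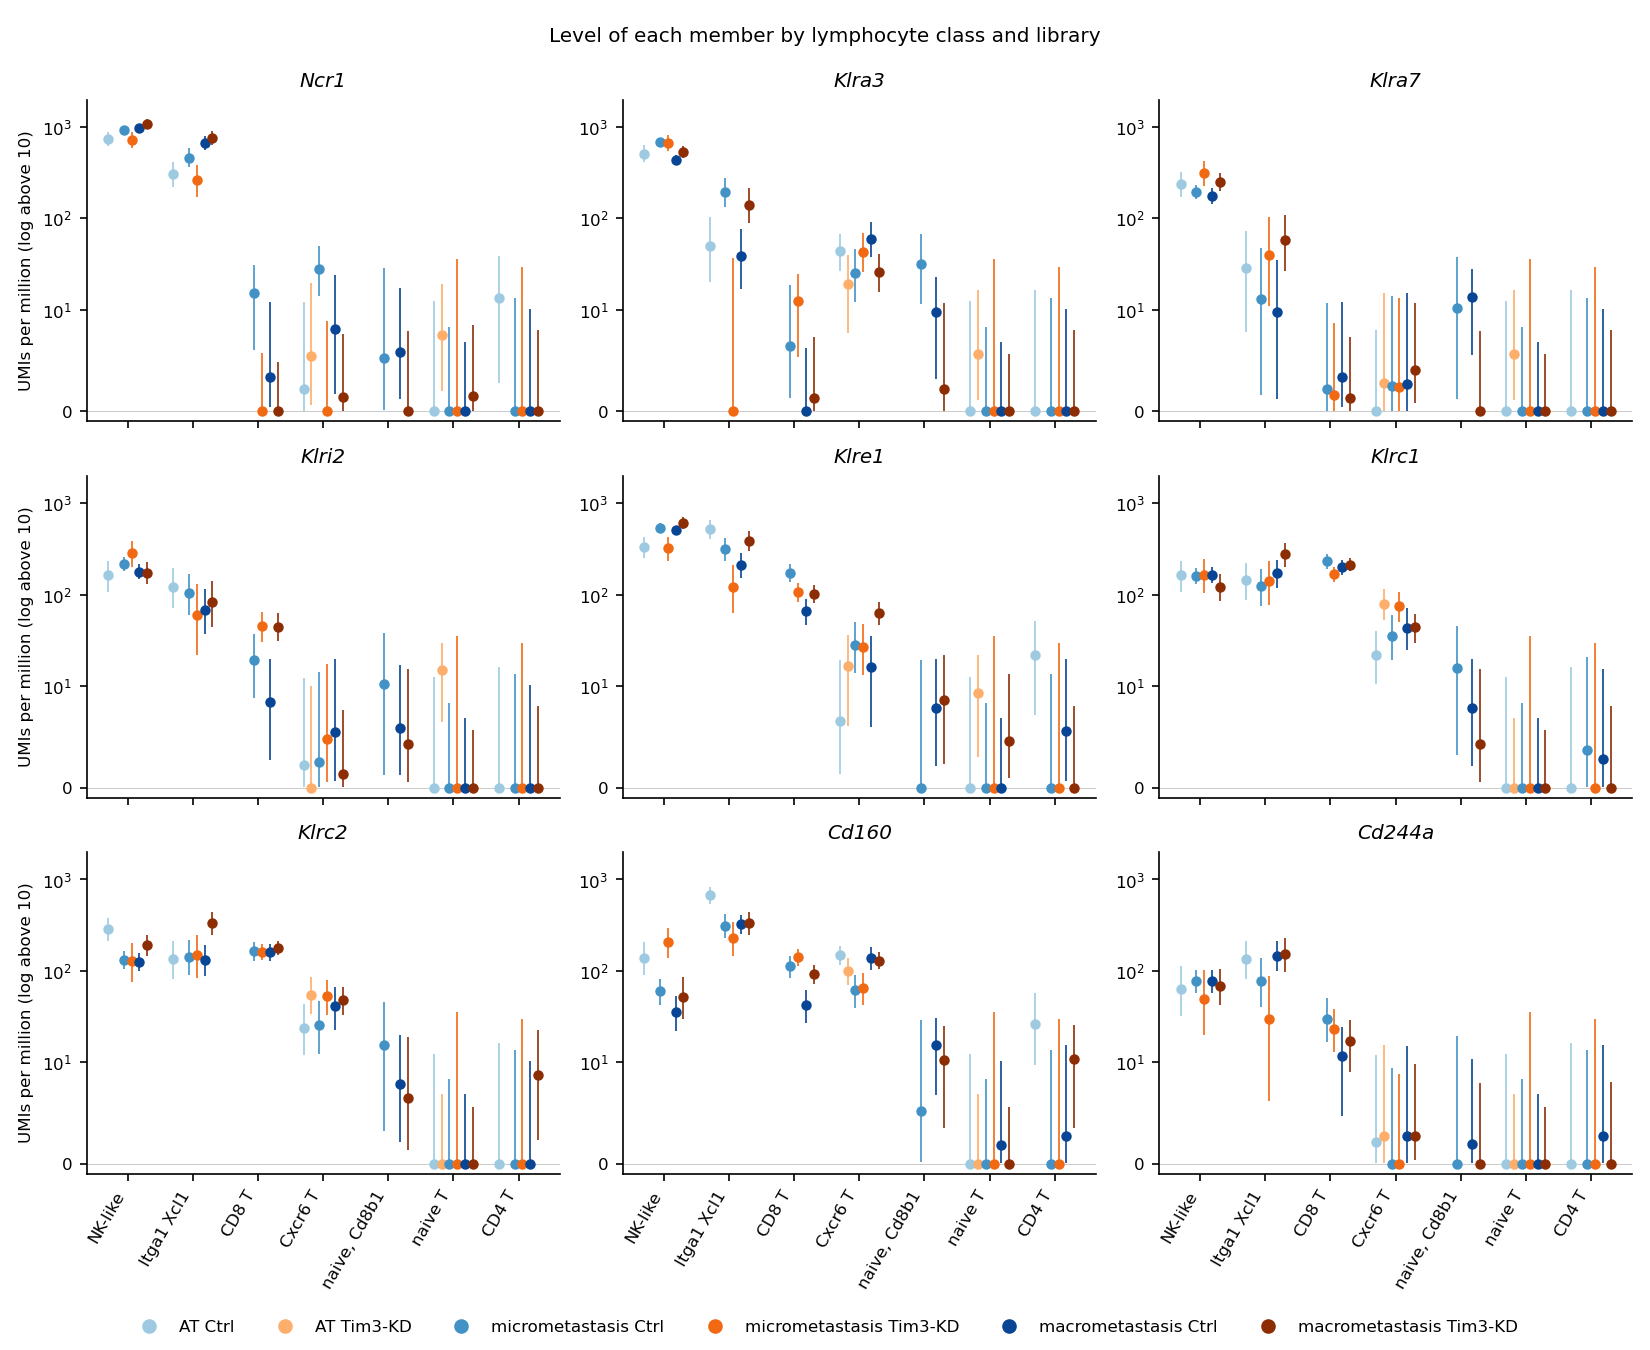
Level of each gene in CPM (vertical axis, linear below 10 and logarithmic above) in 7 lymphocyte classes (horizontal axis), with 1 point per library of at least 20 cells of the class and bars for the 95% Poisson interval. Ncr1, Klra3, Klra7 and Klri2 separate NK-like cells from the T cell classes, whereas Klrc1 and Klrc2 also lie at 121 CPM or more in every library shown of NK-like, Itga1 Xcl1 and CD8 T-like cells.

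Ncr1 divided the NK-like cells and the Itga1 Xcl1 cluster from the T cell classes. In NK-like cells it was at 738 CPM in AT Ctrl, 930.4 in micrometastasis Ctrl, 719 in micrometastasis Tim3-KD, 974 in macrometastasis Ctrl and 1091 in macrometastasis Tim3-KD. The Itga1 Xcl1 cluster had 308, 463, 261, 666 and 761 CPM of it in the same libraries, so that the highest of these overlapped with the lowest NK-like values. CD8 T-like cells ranged from 0 to 15.1 CPM and Cxcr6 T-like cells from 0 to 28 CPM, in both of which the highest library was micrometastasis Ctrl. A UMI of Ncr1 was found in 80% to 92.6% of NK-like cells per library of at least 20 such cells.

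The inhibitory Ly49 genes were the most restricted to NK-like cells by level. Klra3 was at 511, 681, 669, 434 and 534 CPM in NK-like cells of AT Ctrl, micrometastasis Ctrl, micrometastasis Tim3-KD, macrometastasis Ctrl and macrometastasis Tim3-KD. The lowest of these was above every library of the other classes, of which the Itga1 Xcl1 cluster ranged from 0 to 196 CPM and Cxcr6 T-like cells from 19.2 to 59.8 CPM. Klra7 was at 238, 194, 313, 177 and 252 CPM in NK-like cells of those libraries and at most 57.5 CPM in a library of the other 6 classes. In NK-like cells the sums of Klra7, Klri2 and Klra3 are lower bounds, since 39.9%, 26.4% and 23.1% of their detected values stood at the cap of the deposited scores, and their ratios between libraries are of capped sums. Over all cells the shares were 35.8%, 14.9% and 8.91%. In Cxcr6 T-like cells Klra3 gave 96 UMIs and Klra7 gave 7 (13.7, 6.41 to 35), whereas in NK-like cells they gave 1081 and 419 (2.58, 2.3 to 2.89). These ratios are compared between classes and not between genes, as 3' counts are not levels per length.

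Klre1 and its partner gene Klri2 were also found in CD8 T-like cells, with a UMI in 36.8% and 13% of cells, and less in Cxcr6 T-like cells, with a UMI in 9.15% and 1.49%. Klri2 was at 163, 217, 285, 178 and 174 CPM in NK-like cells of those libraries, at 60.1 to 122 CPM in the Itga1 Xcl1 cluster and at 8.42 to 45.2 CPM in CD8 T-like cells, 3 ranges that did not overlap. Klre1 was at 331, 542, 320.4, 505 and 606 CPM in NK-like cells, 120.3 to 523 CPM in the Itga1 Xcl1 cluster and 65.6 to 174 CPM in CD8 T-like cells, and each range overlapped with its neighbour. Cxcr6 T-like cells were at 6.54 to 62.9 CPM for Klre1 and at most 5.44 CPM for Klri2.

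Klrc1 and Klrc2 were as high in T cells as in NK-like cells. Klrc1 was at 232 CPM in CD8 T-like cells of micrometastasis Ctrl, 167 in micrometastasis Tim3-KD, 199 in macrometastasis Ctrl and 213 in macrometastasis Tim3-KD. All 4 were above the NK-like range of 121 to 166 CPM, but the ends of both ranges met within counting error. Klrc2 was at 164, 162, 159.9 and 179 CPM in these 4 libraries, within the NK-like range of 125 to 285 CPM, whose highest value was AT Ctrl. Klrc1 in the Itga1 Xcl1 cluster ranged from 124 to 275 CPM and Klrc2 from 132 to 332 CPM. Cxcr6 T-like cells held less of both, 21.8 to 79.7 CPM of Klrc1 and 24 to 54.9 CPM of Klrc2, and naive T-like cells had 0 UMIs of either in 439 cells, which allows up to 1.17 CPM (3 UMIs). Klrd1, which encodes the shared partner CD94, had a median of 845 CPM in NK-like, 795 CPM in the Itga1 Xcl1 cluster, 620 CPM in CD8 T-like and 185 CPM in Cxcr6 T-like cells. Klrd1 was among the genes used to pick the T and NK clusters and to set the Itga1 Xcl1 cluster apart. Its level there is thus not independent of the naming.

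Cd160 was highest in the Itga1 Xcl1 cluster, with the NK-like median below those of Cxcr6 T-like and CD8 T-like cells. It was at 674, 313, 231, 323 and 332 CPM in the Itga1 Xcl1 cluster of AT Ctrl, micrometastasis Ctrl, micrometastasis Tim3-KD, macrometastasis Ctrl and macrometastasis Tim3-KD, above every library of the other classes. Cxcr6 T-like cells ranged from 61.1 to 148 CPM, CD8 T-like cells from 42.1 to 142 CPM and NK-like cells from 35.4 to 206 CPM, 3 ranges that overlapped. Cd244a was at 30.1 to 153 CPM in the Itga1 Xcl1 cluster and 49.8 to 77.7 CPM in NK-like cells, which overlapped, and at 11.8 to 30.1 CPM in CD8 T-like cells, below every NK-like library.

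The Itga1 Xcl1 cluster was the place where ILC1 would be sought, as Itga1 (CD49a) and Xcl1 are among their markers, but it did not hold one kind of cell. A Cd3 UMI was present in 123 of its 158 cells. The 35 cells without one came from micrometastasis and macrometastasis and none from AT. In these 35 cells Ncr1 was at 1235 CPM (1071 to 1417) with a UMI in 91.4% of cells, and Cd160 at 152 CPM (98.4 to 225). In the 123 cells with Cd3, Ncr1 was at 390.3 CPM (346 to 439) with a UMI in 48.8% of cells and Cd160 at 478 CPM (429 to 531), while Trac was detected in 51.2% and Cd8a in 30.1%. Among ILC1 markers, Itga1 was detected in 17.1% of the cells without Cd3 and 42.3% of those with it, and Cxcr6 in 34.3% and 68.3%. Xcl1 was detected in 91.4% and 88.6%, and Il7r in 45.7% and 13%. The 35 cells are therefore not named ILC1. Klrc1 was at 189 CPM and 206 CPM and Klrc2 at 189 CPM and 205 CPM in the cells without and with Cd3, differences within counting error. The Cd3 division was made after the clusters were seen, and a cell with no Cd3 UMI may still be a T cell. Summed levels of 4 neutrophil markers were 143 to 672 CPM in this cluster against 0 to 29.5 CPM in NK-like cells, and a Csf3r UMI occurred in 5.88% to 31.8% of its cells. The part of such RNA in the values was not tested.

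Counted by where the UMIs lay, 66.5% of all Klra7, 60.3% of Ncr1, 55% of Klra3, 46% of Klre1 and 44.8% of Klri2 UMIs were in NK-like cells. For Klrc1 33.5% and for Klrc2 31.9% were in CD8 T-like cells, more than the 19.6% and 22.8% in NK-like cells. By library this order held in micrometastasis and macrometastasis, except for Klrc2 in micrometastasis Ctrl (32.2% and 34.3%). In AT Ctrl NK-like cells held more, 28% against 24% of Klrc1 and 46.2% against 15.1% of Klrc2. The same held in AT Tim3-KD, with 13.2% against 2.48% and 21.6% against 1.96%. Cd160 was divided over the Itga1 Xcl1 cluster (26.2%), Cxcr6 T-like (21.4%) and CD8 T-like cells (17.7%). The cycling cluster, which mixes T and NK cells, also held these genes, with Ncr1 at 227 CPM (209 to 246), Klre1 at 130.5 CPM and Klrc1 at 104 CPM. Cells marked by Blk and Trdc had 0 UMIs of Klra3, Klra7, Klre1 and Cd244a and 8 UMIs of Cd160 in 67 cells, whereas 23 UMIs of Ncr1 were all in 3 cells.

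**Figure D2:**
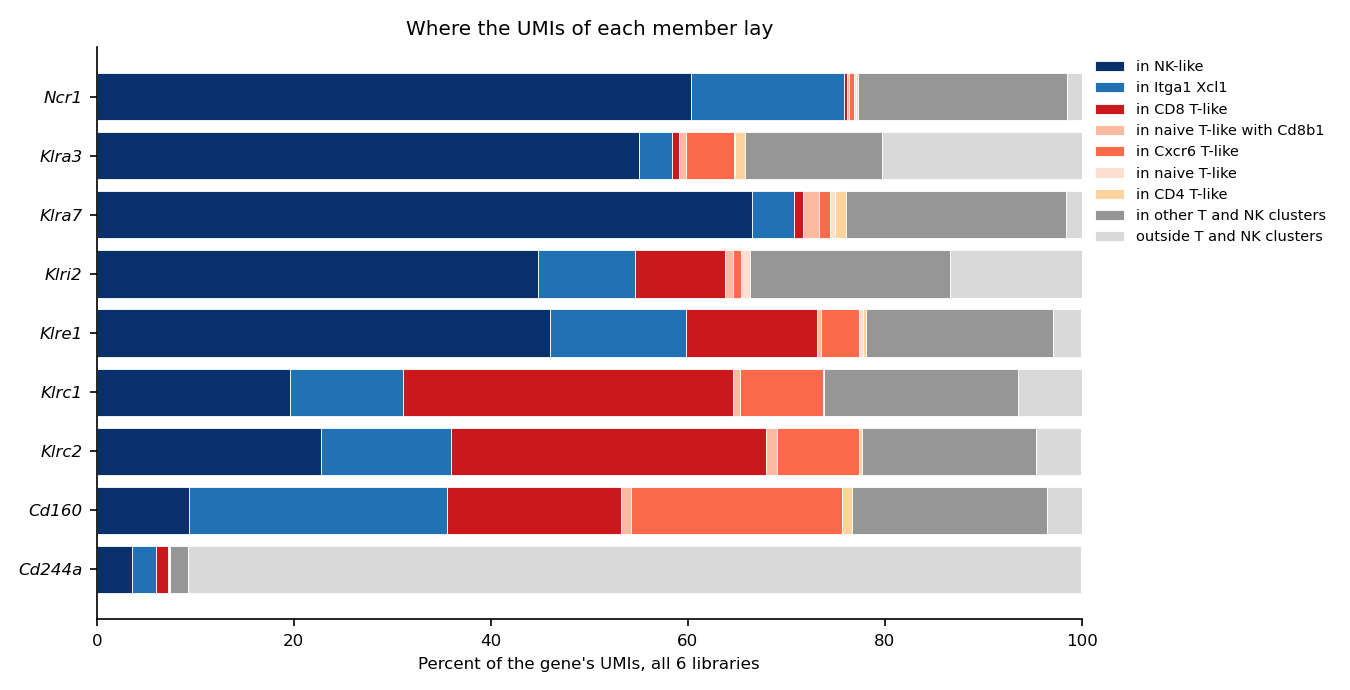
Percent of the UMIs of each gene, over all 6 libraries (horizontal axis), that lay in each class of cells (colours). Cd244a stands apart with 90.7% of its UMIs outside the T and NK clusters, against 1.55% for Ncr1.

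Cd244a was mostly a myeloid transcript in these libraries, with 90.7% of its 4052 UMIs outside the T and NK clusters. Mature neutrophil-like cells held 2019 of them (46 CPM, 44 to 48, a UMI in 22.4% of cells), although NK-like cells had the higher level. Among neutrophil-like clusters the one led by Csf1 and Ccrl2 was at 86.4 CPM (81.3 to 91.9), the one led by Cxcr2 at 43.3 CPM (40.1 to 46.6) and the one led by Bcl2l15 at 18.3 CPM (16.3 to 20.5). Monocyte-like cells led by Thbs1 and Ccr2 were at 31 CPM, those led by Cd36 and Fabp4 at 98 CPM (71.7 to 131, 71 cells), and cells led by Mcpt8 and Prss34, which are basophil genes, at 49.6 CPM (38.7 to 62.7, 143 cells). Kupffer-like cells led by Clec4f were at 2.22 CPM, near the 1.69 CPM of B-like cells, where 0.826% of cells had a UMI. The levels of the 3 neutrophil-like clusters differed beyond their intervals.

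Klra3 and Klri2 also had UMIs outside the T and NK clusters. Of Klra3 UMIs 20.3% were there, at 6.44 CPM (5.45 to 7.57) in Kupffer-like cells led by Clec4f, 5.95 CPM in monocyte-like cells led by Sdc4 and Trem2 and 5.04 CPM in dendritic cell-like cells led by Clec9a, against 1.38 CPM (0.819 to 2.18) in B-like and 0.114 CPM in mature neutrophil-like cells. Of Klri2 UMIs 13.4% were outside, and dendritic cell-like cells led by Clec9a had 10.7 CPM (8.55 to 13.2) with a UMI in 12.4% of cells, against 0.384 CPM in B-like cells. Klra7 had 1.59% of its UMIs outside.

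Single cells combined several of these genes. After thinning each cell to 1500 UMIs, 96.2% of NK-like cells had a UMI of at least 1 of the 9 genes, 83.2% of at least 2 and 26% of at least 4. In the Itga1 Xcl1 cluster the shares were 86.1%, 69% and 18.4%, in CD8 T-like cells 54%, 20.2% and 0.554%, and in Cxcr6 T-like cells 27.4%, 7.87% and 0.638%. B-like cells, as the background, had 0.609% with at least 1 gene and 0.0435% with at least 2. Unthinned, at a median of 3532 UMIs in NK-like and 4105 in B-like cells, 98.9% and 1.91% had at least 1. Per library the share of NK-like cells with at least 2 genes ran from 70.4% in AT Ctrl to 88% in micrometastasis Tim3-KD. The shares of each gene alone in thinned NK-like cells were 69.1% for Ncr1, 56.1% for Klre1, 40.4% for Klra3, 24.4% for Klra7 and for Klri2, 19.5% for Klrc1 and for Klrc2, 9.64% for Cd244a and 5.38% for Cd160.

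**Figure D3:**
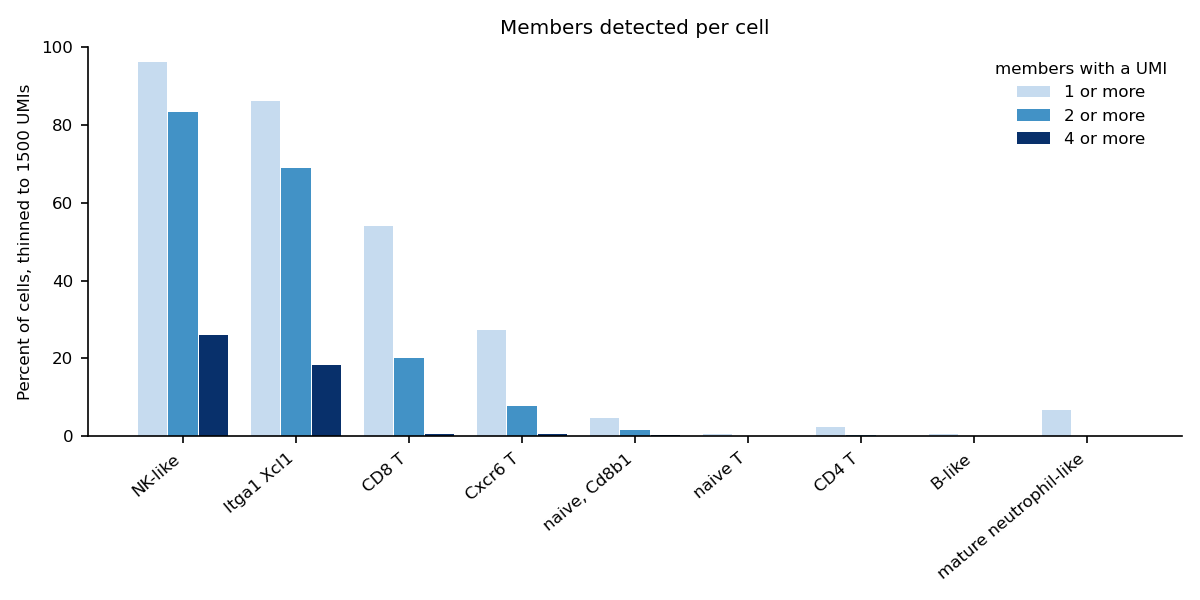
Percent of cells of each class, thinned to 1500 UMIs (vertical axis), with a UMI of at least 1, 2 or 4 of the 9 genes (bars), over all 6 libraries. NK-like cells stand at 96.2%, 83.2% and 26%, and B-like cells at 0.609% for at least 1 gene.

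Klrc1 and Klrc2 were found in the same cells more often than the product of their shares. Of 446 thinned NK-like cells 87 had a UMI of Klrc1, 87 of Klrc2 and 27 of both, 1.59 times the product, and the value was 1.6 in the Itga1 Xcl1 cluster and 1.56 in CD8 T-like cells. The excess was larger in Cxcr6 T-like cells, where 27 of 470 had Klrc1, 31 had Klrc2 and 13 had both. The shared read windows given above bear on this pair. Klra3 and Klra7 were both found in 46 cells, 1.05 times the product, and Klri2 with Klrc1 in 14 cells, 0.658 times, whereas in CD8 T-like cells this pair was found in 10 of 361 cells, 2.12 times. These are descriptions over pooled libraries.

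Over 85 sums of library and class, which share libraries, and 1642 genes present in all matrices, the gene whose log2(CPM + 10) followed each of the 9 most closely was another of the 9 in 6 cases. Klrc1 and Klrc2 followed each other (Pearson r = 0.986), Ncr1 followed Klri2 (0.914), Klra7 followed Ncr1 (0.912), Klra3 followed Klra7 (0.871) and Klri2 followed Klre1 (0.928). Klre1 was closest to Gzma (0.943), a granule protease of killer cells, and Cd160 to Xcl1 (0.953), Ifng (0.930) and Fasl (0.928). Cd244a had the weakest likeness, with Ccl3 (0.801), Ccl4 (0.767) and Chst11 (0.761).

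Setting Tim3-KD beside Ctrl addresses whether the receptor genes differed in the same class of cells when the tumour cells carried the Tim3 knockdown. With 1 library per group a ratio of at least 2 or at most 0.5 on at least 20 UMIs over both libraries was called past the fold, and the same share among all genes of the matrix is given beside it. Over the 4 classes of interest 59 values of the 9 genes had 20 UMIs, of which 11 were higher and 4 lower past the fold. Among all genes with 20 UMIs in the same 9 comparisons, the share ran from 3.89% to 14.9% higher and from 4.33% to 33.6% lower. Of all 80 values with any UMI, 17 were higher and 12 lower, where 18.2% of all genes with any UMI in these comparisons were higher and 25.1% lower.

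In NK-like cells of micrometastasis 1 of the 9 genes, Cd160, was past the fold, and it was higher in Tim3-KD. It had 206 CPM in Tim3-KD (29 UMIs, 25 cells) and 59.9 CPM in Ctrl (37 UMIs, 165 cells), a ratio of 3.45 (2.05 to 5.76). A UMI was found in 52% of cells against 11.5%. Among all 950 genes 3.89% were higher and 33.6% lower past the fold, and 0 of the 9 were lower past it. The trimmed mean log2 ratio of all genes was -0.02. With 25 cells in Tim3-KD and 165 in Ctrl, a gene near the UMI minimum can fall past the fold by counting error alone. The share was not taken for genes with UMI sums like those of the 9. Whether the 9 differed from such genes was not tested. The interval also lay above 1 for Klra7 (1.61, 1.12 to 2.3) and below 1 for Ncr1 (0.773, 0.619 to 0.956) and Klre1 (0.591, 0.423 to 0.809), whereas Klra3 (0.983), Klrc1 (1.02) and Klrc2 (0.978) were near 1, with intervals that reached from 0.777 to 1.23, 0.62 to 1.62 and 0.552 to 1.64. 

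The NK-like cells of these libraries were also made up differently. At a finer clustering they fell into a cluster led by Prf1, Gzma and Irf8 (284 cells) and a cluster led by Itgax and Car2 (165 cells), and the latter held 32.7% (25.6 to 40.5) of NK-like cells in micrometastasis Ctrl and 85.2% (66.3 to 95.8, 23 of 27 cells) in micrometastasis Tim3-KD. Cd160 was at 111 CPM in the Itgax Car2 cluster and 25.8 CPM in the other, Klra7 at 279 and 151 CPM, Ncr1 at 706 and 1161 CPM and Klre1 at 378 and 600.4 CPM. Klra3, Klri2, Klrc1 and Klrc2 had overlapping intervals in both clusters. Cd244a was at 52.8 CPM (39.3 to 69.4) in the Itgax Car2 cluster and 90.2 CPM (72.6 to 111) in the other, with intervals that did not overlap. Prf1 and Irf8, which lead the first cluster, themselves differed between these libraries (their values stand with the other pathway genes), so that a change of make-up and of level cannot be told apart. Within the Itgax Car2 cluster of micrometastasis, Cd160 was at 237 CPM in Tim3-KD and 105 CPM in Ctrl (2.25, 1.31 to 3.87), still past the fold as 1 of 9 genes where 4.16% of 433 genes were higher and 17.1% lower, while Ncr1 (0.941, 0.728 to 1.21), Klre1 (0.793, 0.539 to 1.14) and Klra7 (1.29, 0.864 to 1.9) had intervals that held 1. In this class a Cd3g UMI occurred in 48% of cells in micrometastasis Tim3-KD, 6.06% in micrometastasis Ctrl and 22.2% in AT Ctrl, with Cd3e in at most 1.75% of cells of any of the 5 libraries. The part of cells with Cd3g in the Cd160 value was not tested.

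**Figure D4:**
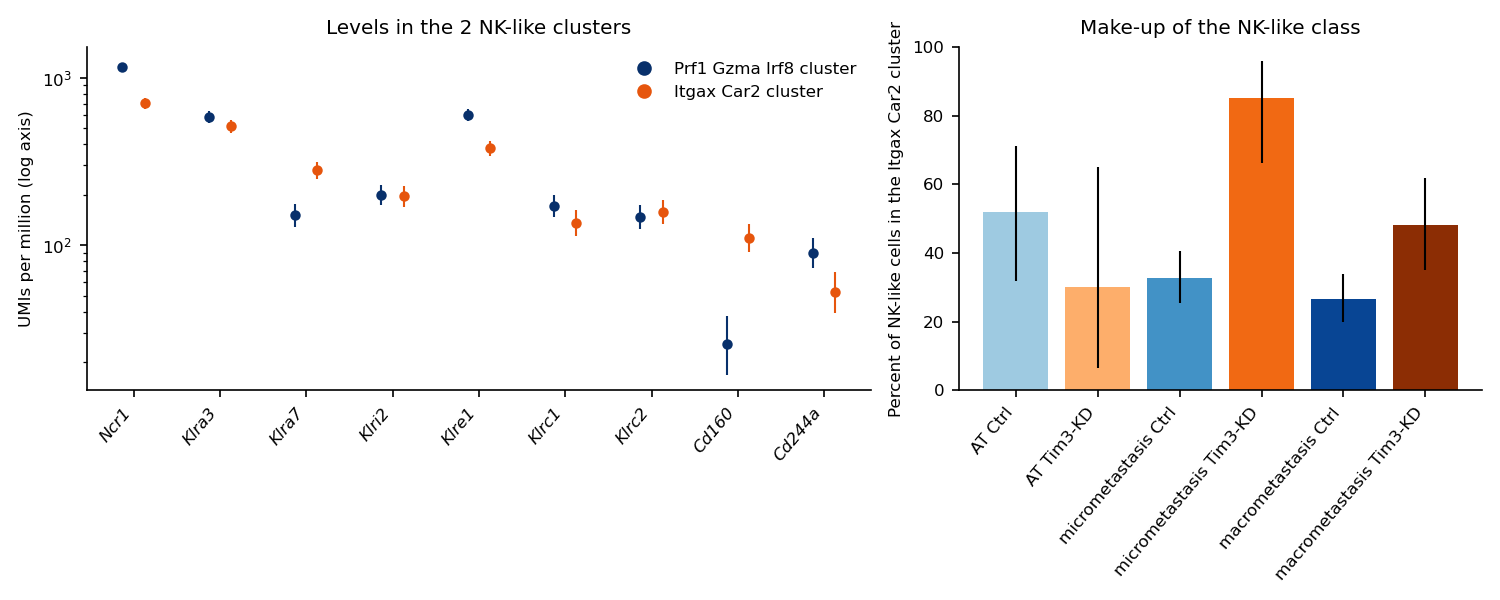
Left, level of each gene (CPM, log axis) in the 2 finer clusters of NK-like cells over all 6 libraries, with 95% Poisson intervals. Right, percent of the NK-like cells of each library in the Itgax Car2 cluster, with 95% binomial intervals. Cd160 is at 25.8 CPM in one cluster and 111 CPM in the other, and the share of the latter reaches 85.2% in micrometastasis Tim3-KD.

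In NK-like cells of macrometastasis 0 of the 9 genes were past the fold, where 6.22% of 836 genes were higher and 12.3% lower. The intervals for Klra7 (1.43, 1.05 to 1.93), Klrc2 (1.54, 1.08 to 2.19) and Klra3 (1.23, 1.01 to 1.5) lay above 1. Cd160 was at 52.4 CPM in Tim3-KD and 35.4 CPM in Ctrl (1.48, 0.727 to 2.95), and its interval overlapped with that of micrometastasis. The share of NK-like cells in the Itgax Car2 cluster was 48.3% in Tim3-KD and 26.5% in Ctrl.

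CD8 T-like cells had 1 of 6 genes past the fold in micrometastasis and 2 of 6 in macrometastasis, all higher in Tim3-KD. Klri2 was at 45.2 CPM in Tim3-KD and 19.4 CPM in Ctrl of micrometastasis (2.33, 1.07 to 5.6), where 5.61% of 1123 genes were higher and 7.93% lower past the fold. In macrometastasis it was at 44.5 and 8.42 CPM (5.29, 2.06 to 17.3, from 34 and 5 UMIs), and Cd160 at 93 and 42.1 CPM (2.21, 1.38 to 3.64), where 7.04% of 995 genes were higher and 5.93% lower. A UMI of Klri2 occurred in 20.9% of Tim3-KD cells and 4.41% of Ctrl cells of macrometastasis. Under the 10 other settings tried for each, Klri2 in macrometastasis was past the fold in all 10 (2.7 to 11.9), Klri2 in micrometastasis in 6 (1.84 to 3.48) and Cd160 in 5 (1.22 to 2.24). Klrc1 and Klrc2, the highest of the genes in this class by UMIs, were within 0.717 to 1.12 in both sites. The 0.717 was Klrc1 in micrometastasis (107 UMIs in Tim3-KD and 108 in Ctrl), whose interval lay below 1. Klre1 was below 1 in micrometastasis (0.608, 0.434 to 0.849) and above 1 in macrometastasis (1.56, 1.05 to 2.35).

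Micrometastasis cells of the Itga1 Xcl1 cluster had 2 of 7 genes past the fold, both lower in Tim3-KD, where 11.4% of 332 genes were higher and 18.4% lower. Klra3 had 0 UMIs in 22 cells of Tim3-KD and 30 UMIs in 32 cells of Ctrl (at least 6.5-fold lower, taken against a floor of 3 UMIs in the library), in 7 cells of the latter. Klre1 was at 120.3 CPM in Tim3-KD and 313 CPM in Ctrl (0.384, 0.186 to 0.735). In macrometastasis 2 of 8 genes were past the fold, both higher in Tim3-KD, where 14.9% of 390 genes were higher and 12.3% lower. Klra3 was at 141 CPM in Tim3-KD and 39.2 CPM in Ctrl (3.59, 1.54 to 9.32) and Klrc2 at 332 and 132 CPM (2.51, 1.55 to 4.16). These micrometastasis and macrometastasis libraries had 22 to 34 cells of the cluster each. In micrometastasis a Csf3r UMI occurred in 31.8% of Tim3-KD and 15.6% of Ctrl cells, Cd8b1 in 18.2% and 0%, and Eomes in 0% and 15.6%. In macrometastasis the 4 neutrophil markers summed to 269 CPM in Tim3-KD and 622 CPM in Ctrl. The part of this make-up in the ratios was not tested. Klrc2 was not past the fold under 1 of 6 other settings (1.38).

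Cxcr6 T-like cells could be compared at all 3 sites. In AT Klrc1 was higher in Tim3-KD (79.7 against 21.8 CPM, 3.66, 1.73 to 8.41), as was Klrc2 (54.9 against 24 CPM, 2.29, 1.05 to 5.3), and Klra3 was lower (19.2 against 43.6 CPM, 0.441, 0.158 to 1.09). These were 2 higher and 1 lower of 4 genes, where 9.50% of 1368 genes were higher and 18.2% lower, and the Tim3-KD cells had a median of 13017 UMIs against 7420. In micrometastasis Klrc1 (2.09, 1.08 to 4.26) and Klrc2 (2.08, 0.945 to 4.92) were again higher, 2 of 5 genes, where 4.40% of 931 genes were higher and 6.23% lower. In macrometastasis Klrc1 was at 43.7 and 43.5 CPM and Klrc2 at 47.8 and 40.8 CPM, while Klre1 was higher in Tim3-KD (62.9 against 16.3 CPM, 3.86, 1.64 to 11) and Klra3 lower (26 against 59.8 CPM, 0.434, 0.222 to 0.841), 1 higher and 1 lower of 5 genes where 8.11% of 900 genes were higher and 4.33% lower. None of these calls held under every other setting, and Klra3 in macrometastasis turned to 1.21 when cells were called one by one by T cell genes and all other T cells took the place of the Cxcr6 cluster.

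**Figure D5:**
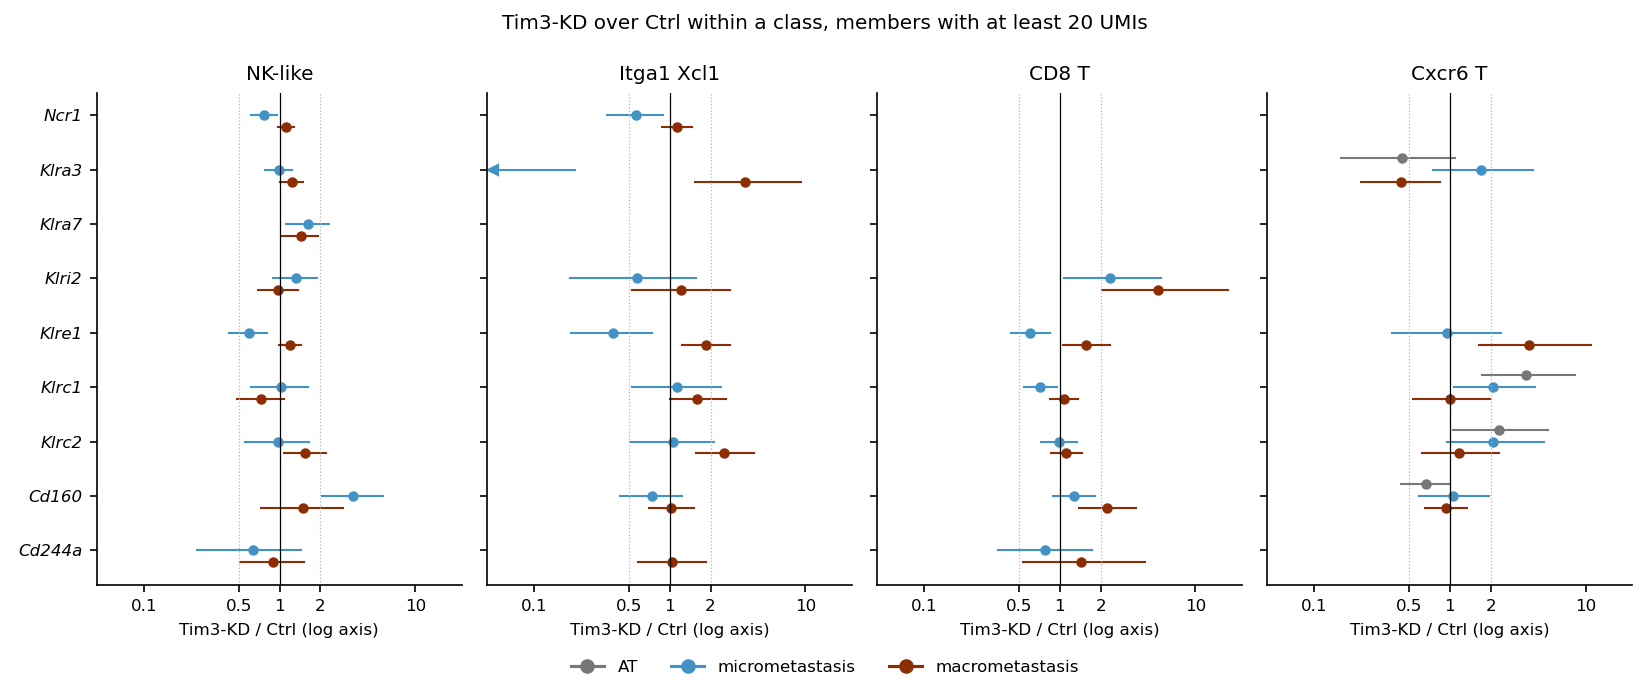
Ratio of Tim3-KD to Ctrl (horizontal log axis) for each gene in 4 classes, with points for sites and bars for the exact 95% interval of counting error. Dotted lines mark 0.5 and 2, and the triangle stands for 0 UMIs of Klra3 in Tim3-KD. In NK-like cells only Cd160 of micrometastasis lies beyond a dotted line, at 3.45.

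In the cycling cluster of micrometastasis Klra3 (25 UMIs in Tim3-KD against 1 in Ctrl, a ratio of 19.7, 3.22 to 809) and Klri2 (2.6, 1.25 to 5.91) were higher and Ncr1 lower (0.357, 0.253 to 0.498), where 5.71% of 841 genes were higher and 8.32% lower. In macrometastasis Klra7 alone was past the fold, lower in Tim3-KD (0.241, 0.114 to 0.464), where 5.61% of 1070 genes were higher and 8.04% lower. These cells mix T and NK cells, so a change in the share of NK cells and in the level per cell cannot be told apart.

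Over all cells of a library, the levels also hold the share of NK-like and T cells in it. In micrometastasis NK-like cells made up 3.23% (2.76 to 3.75) of Ctrl and 0.486% (0.315 to 0.717) of Tim3-KD cells, in macrometastasis 3.3% (2.82 to 3.84) and 1.04% (0.786 to 1.34), and in AT 1.5% (0.989 to 2.17) and 1.85% (0.888 to 3.37). All T and NK clusters together made up 11.6% of AT Ctrl and 25.3% of AT Tim3-KD. Over all cells 6 of 9 genes were lower past the fold in micrometastasis Tim3-KD, from 0.164 for Ncr1 to 0.492 for Cd244a, where 0.749% of 2669 genes were higher and 18.2% lower. In macrometastasis 4 of 9 were lower, Ncr1, Klra3, Klra7 and Klri2, at 0.382 to 0.445, where 2.27% of 2643 genes were higher and 10.6% lower. In AT 8 of 9 were higher, from 2.61 for Klra3 to 5.23 for Klrc1, and Cd244a was lower (0.429), where 34.0% of 4485 genes were higher and 9.39% lower. The trimmed mean log2 ratio of all genes in these comparisons was -0.44, -0.27 and 0.59. Relative to it, 3 of the 6, 2 of the 4 and 5 of the 8 calls stayed past the fold, Ncr1 among them at each site.

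Some of the genes could also be compared within myeloid cells, where 5 of 17 values with 20 UMIs were past the fold. The minimum of 20 cells was not applied to the 17. Cd244a in mature neutrophil-like cells of AT (0.759, 0.276 to 1.68) is among them, on 19 Tim3-KD cells. For Cd244a, mature neutrophil-like cells of micrometastasis had 42 CPM in Tim3-KD against 60.2 CPM (0.698, 0.598 to 0.813), and those of macrometastasis 51.2 against 26 CPM (1.97, 1.73 to 2.25). The direction differed between the sites and neither was past the fold, where 2.93% and 3.71% of genes were higher and 4.76% and 3.52% lower. Monocyte-like cells of micrometastasis had 9.85 CPM in Tim3-KD against 22.5 CPM (0.438, 0.357 to 0.536), past the fold where 7.45% of 2496 genes were higher and 14.3% lower. Those of macrometastasis had 13.9 against 24.3 CPM (0.57, 0.439 to 0.742), where 7.43% of 2289 genes were higher and 11.8% lower. In AT the monocyte-like value was 7.96 against 16.2 CPM (0.491, 0.132 to 1.29) on 4 UMIs in 23 cells of Tim3-KD, where 16.1% of 3865 genes were higher and 22.4% lower. Kupffer and other macrophage-like cells of macrometastasis had more Cd244a in Tim3-KD, 2.67 against 1.17 CPM (2.28, 1.05 to 5.5) on 28 and 9 UMIs, where 2.36% of 2159 genes were higher and 7.41% lower. In those of micrometastasis Klra3 was at 4.36 against 8.84 CPM (0.493, 0.209 to 1.09), where 4.70% of genes were higher and 2.42% lower, and in dendritic cell-like cells of micrometastasis Klri2 was at 16 against 7.8 CPM (2.05, 1.02 to 4.08), where 7.06% were higher and 5.83% lower. The neutrophil-like and monocyte-like classes each join clusters whose own Cd244a levels differed several-fold. The Kupffer and other macrophage-like class joins clusters at 2.22 and 2.13 CPM. The dendritic cell-like class joins clusters at 15.2 and 17.2 CPM of Cd244a, but 10.7 and 1.36 CPM of Klri2. The part of the make-up of these classes was not tested.

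The sites were compared among the Ctrl libraries, micrometastasis with AT and macrometastasis with micrometastasis, which share the micrometastasis library. In NK-like cells of micrometastasis Klrc2 (131 against 285 CPM, 0.461, 0.319 to 0.671) and Cd160 (59.9 against 139 CPM, 0.429, 0.25 to 0.75) were lower than in AT, 2 of 9 genes where 12.5% of 827 genes were higher and 7.13% lower, on 27 cells of AT. Relative to the trimmed mean of all genes (-0.21 on the log2 scale) Klrc2 was at 0.531, no longer past the fold, as was Cd160 in cells of at least 3000 UMIs (0.534). The Itgax Car2 cluster, with the higher Cd160, held 51.9% (31.9 to 71.3) of NK-like cells in AT Ctrl and 32.7% (25.6 to 40.5) in micrometastasis Ctrl. A Cd3g UMI occurred in 22.2% and 6.06% of NK-like cells. The part of this make-up was not tested. Between macrometastasis and micrometastasis 0 of 9 were past the fold in these cells, where 4.01% of 822 genes were higher and 3.77% lower, and Klra3 was at 434 against 681 CPM (0.637, 0.545 to 0.744, on sums limited by the cap). Ncr1 (1.05, 0.932 to 1.18), Klre1 (0.931, 0.796 to 1.09) and Cd244a (0.993, 0.652 to 1.51) had intervals that held 1.

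In CD8 T-like cells 3 of 5 genes were lower in macrometastasis than in micrometastasis, where 6.46% of 681 genes were higher and 8.96% lower. Klre1 was at 65.6 against 174 CPM (0.377, 0.25 to 0.558), Cd160 at 42.1 against 112 CPM (0.376, 0.224 to 0.617) and Cd244a at 11.8 against 30.1 CPM (0.391, 0.134 to 1.04), whereas Klrc1 (0.855, 0.653 to 1.12) and Klrc2 (0.978, 0.716 to 1.34) were not past the fold. Each of the 3 was past the fold under some and not all of 4 other settings, with a highest value of 0.539 for Klre1, 0.723 for Cd160 and 0.762 for Cd244a. The median of UMIs per CD8 T-like cell was 7396.5 in macrometastasis Ctrl and 4662 in micrometastasis Ctrl.

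In the Itga1 Xcl1 cluster Cd160 was lower in micrometastasis than in AT (313 against 674 CPM, 0.465, 0.321 to 0.665) and Klra3 higher (196 against 50.2 CPM, 3.9, 1.68 to 10.5), where Cd160 was at 0.546 relative to the trimmed mean of all genes, 1 in each direction of 8 genes where 11.5% of 340 genes were higher and 16.5% lower. Klra3 was then lower in macrometastasis (39.2 CPM, 0.2, 0.0794 to 0.447), 1 of 8 genes where 11.6% of 328 genes were higher and 7.32% lower. All 25 AT Ctrl cells of this cluster had a Cd3 UMI, whereas 11 of 32 micrometastasis Ctrl cells had none. Over all libraries Cd160 was at 478 CPM in its cells with Cd3 and 152 CPM in those without. The part of this make-up in the site ratios was not tested. In Cxcr6 T-like cells Cd160 was at 148 CPM in AT, 61.1 CPM in micrometastasis (0.412, 0.247 to 0.665) and 139 CPM in macrometastasis (2.27, 1.37 to 3.85), and Klra3 was at 43.6, 25.4 and 59.8 CPM (2.35, 1.07 to 5.56, for the last against the middle). The first comparison had 1 lower of 4 genes where 4.74% of 844 genes were higher and 7.82% lower, and the second 2 higher of 4 where 6.90% of 565 genes were higher and 4.25% lower. Both of the latter turned when cells were called one by one as above, to 0.97 for Cd160 and 0.581 for Klra3.

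Other genes of these pathways, from lists of receptors, adaptors, effectors and transcription factors, were read in the same way between Tim3-KD and Ctrl. In NK-like cells of micrometastasis, where 3.89% of all 950 genes with 20 UMIs were higher and 33.6% lower, the list genes past the fold were likewise lower. As said above, counting error on 25 Tim3-KD cells can alone put a gene of few UMIs among the lower ones. In NK-like cells of micrometastasis 0 of 5 other receptors of the NK gene complex with 20 UMIs were past the fold, among them Klrd1 (0.821, 0.665 to 1) and Klrk1, which encodes NKG2D (0.912, 0.673 to 1.22). Of 5 other activating, SLAM family and inhibitory receptors 2 were lower, Slamf1 (0.107) and Cd226, the activating receptor DNAM-1. Cd226 had 0 UMIs in Tim3-KD and 25 in Ctrl, a ratio of 0 counted as lower, as in the share over all genes. Against a floor of 3 UMIs it is only at least 1.89-fold lower, which is not past the fold. Of 3 adaptors and kinases Cd247 was lower (0.367). Of 9 effector genes Prf1, the gene of perforin (0.275, 0.204 to 0.363), and Fasl (0.418, 0.238 to 0.688) were lower. Of 6 transcription factors 5 were lower, Irf8 (0.281), Zeb2 (0.285), Tcf7 (0.489), Rora (0.232) and Prdm1 (0.367), and Eomes was at 0.674. In Tim3-KD, Slamf1, Cd247, Zeb2, Tcf7, Rora and Prdm1 were at 7.12 to 49.8 CPM, on few UMIs in 25 cells. Their ratios are given without intervals and are uncertain. Prf1 and Irf8 were among the leading genes of the NK-like cluster itself. In NK-like cells of macrometastasis only Slamf1 (0.448, 0.21 to 0.872) of these lists was past the fold, where 6.22% of all 836 genes were higher and 12.3% lower.

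In CD8 T-like cells of micrometastasis Havcr2, which encodes Tim3 itself (2.07, 1.33 to 3.3), Cd84 (2.3, 1.31 to 4.23) and Gzma (2.56, 2.31 to 2.83) were higher in Tim3-KD and Tnfsf10 lower (0.462), 2 of 8 receptors and 1 effector gene higher and 1 lower of 10. Among all 1123 genes 5.61% were higher and 7.93% lower. In macrometastasis Xcl1 was higher (3.17, 2.56 to 3.96) and Gzmb lower (0.482, 0.403 to 0.574), 1 effector gene each way of 10, with 0 of 7 receptors, where 7.04% of all 995 genes were higher and 5.93% lower. The CD8 T-like cells had 0 of 3 adaptors and kinases and 0 of 6 transcription factors past the fold at both sites. Havcr2 was among the leading genes of the CD8 T-like cluster itself. In the Itga1 Xcl1 cluster 1 of 4 other receptors of the NK gene complex, Klrb1f, was lower in micrometastasis Tim3-KD (0.149, 0.0291 to 0.477) and higher in macrometastasis Tim3-KD (2.22, 1.24 to 4.07), and 3 of 10 effector genes were lower at the former and 2 higher and 1 lower at the latter. Of the other lists Cd84 (2.52) was higher and Ikzf2 (0.355) lower in micrometastasis, 1 of 3 receptors and 1 of 3 transcription factors, and Ctla4 (0.131) and the adaptor gene Sh2d1a (0.435) were lower in macrometastasis, 1 of 4 receptors and 1 of 3 adaptors. The shares over all genes were 11.4% higher and 18.4% lower in micrometastasis and 14.9% and 12.3% in macrometastasis.

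In Cxcr6 T-like cells 0 of 2 other receptors of the NK gene complex and 0 of 3 adaptors and kinases were past the fold at each of the 3 sites. In AT Tim3-KD the effector genes Ccl4 (3.03) and Gzma, a granzyme (20 and 1 UMIs), were higher and Prf1 (0.36) lower, of 9, with Tcf7 higher (2.21), Prdm1 (0.458) and Ikzf2 (0.252) lower of 4 transcription factors and Cd84 (0.344) lower of 8 receptors. All genes there were 9.50% higher and 18.2% lower. In micrometastasis Gzma was higher (3.64, 1.95 to 7.3) and Ccl3 lower (0.364) of 9 effector genes, with 0 of 6 receptors and 0 of 2 transcription factors, where 4.40% of all genes were higher and 6.23% lower. In macrometastasis Gzmb (2.29, 1.84 to 2.87) and the receptor gene Slamf6 (2.31) were higher, 1 of 10 effector genes and 1 of 5 receptors. The same library had lower Gzma (0.308), Ccl3 (0.377), Rora (0.441) and Irf8 (0.402), 2 effector genes and 2 of 5 transcription factors, where 8.11% of all genes were higher and 4.33% lower.

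Among ligand genes read over all cells, Clec2d (3.03) and Clec2i (2.25) were higher in AT Tim3-KD, 2 of 3, and Pvr, the gene of a Cd226 ligand, was lower in micrometastasis Tim3-KD (0.459), 1 of 6, with 0 of 4 in macrometastasis. Over all cells 34.0% of 4485 genes were themselves higher in AT Tim3-KD, with a trimmed mean log2 ratio of 0.59, and 18.2% of 2669 genes were lower in micrometastasis Tim3-KD, with a trimmed mean of -0.44.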

How the data were processed

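CD45+ cells were sorted from liver pieces, 1 library for each of 6 groups from pooled mice, and run on a droplet 3' kit. Per the methods and labels, the authors trimmed reads (Trim Galore 0.4.3), aligned them (STAR 2.7.7a) to GRCm38, took UMIs of exons plus introns, and removed shallow cells and doublets before deposit, so no doublet caller was run here. The deposited values were scaled scores, 1 matrix for each of 3 sites, with total UMIs regressed out and a cap of 10. They were turned back to UMIs by solving the scaling gene by gene. At each site at least 99.997% of values came out whole within 0.05, and values at the cap (301 of 7605 values above 0 of the 9 genes) are lower bounds. The matrices held 11.3% to 14.7% of all UMIs. Since the values were not counts as deposited, no count model was run. Library totals were 7086531 to 79971757 UMIs.

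Cells were clustered without the 9 genes (30 principal components, 15 neighbours, Leiden resolution 1, leidenalg 0.10.2, scikit-learn 1.9.0), and T and NK clusters again among themselves. Clusters were named from fixed marker lists, and the thresholds of naming were set after the clusters were seen. UMIs were summed per library and class, with Poisson, binomial (Clopper-Pearson) and conditional binomial 95% intervals (Python 3.11.15, numpy 2.4.6, scipy 1.17.1, pandas 2.3.3, matplotlib 3.10.9), which cover counting error only. The fold threshold was 2 or 0.5 with 20 UMIs over both libraries and 20 cells in each. The floor for 0 was 3 UMIs. Named genes were the 9 members, all of them, the 3 genes most like each, and genes of pathway lists past the fold or needed beside them. Members, marker lists and pathway lists were chosen with earlier results of these data known. Steps were tested on simulated data.

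Alternatives were resolution 2, clustering with the 9 genes, cells of at least 3000 UMIs, means over cells, scaling by a mean of ratios trimmed by 30% at each end, cells called one by one from markers, and 3000 or no thinned UMIs.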

Additional observations from a re-analysis of the deposited data

Results flagged for a closer look

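Over all cells of a library, 5 of the 9 genes were past the fold in opposite directions at the sites, and this difference between sites was not tested, as each group had 1 library. The ratio of Tim3-KD to Ctrl in AT, micrometastasis and macrometastasis was 4.5, 0.164 and 0.403 for Ncr1, 2.61, 0.234 and 0.445 for Klra3, 3.04, 0.389 and 0.382 for Klra7, and 3.87, 0.473 and 0.445 for Klri2. For Klre1 it was 2.84 in AT and 0.243 in micrometastasis. Over all genes 34.0% were higher and 9.39% lower in AT, 18.2% were lower in micrometastasis and 10.6% in macrometastasis, with trimmed mean log2 ratios of 0.59, -0.44 and -0.27. Relative to these means Klra3 (1.73) and Klre1 (1.88) were not past the fold in AT, nor was Klri2 in micrometastasis (0.64) and macrometastasis (0.536), so that Ncr1 and Klra7 alone of the 5 kept calls in opposite directions (Ncr1 2.98, 0.223 and 0.485, Klra7 2.01, 0.527 and 0.461). The share of NK-like cells in the same libraries was 1.5% of AT Ctrl and 1.85% of AT Tim3-KD cells. It was 3.23% against 0.486% for micrometastasis and 3.3% against 1.04% for macrometastasis. Within NK-like cells of micrometastasis and macrometastasis, none of these 5 genes was past the fold, and 10 NK-like cells in AT Tim3-KD were too few for the comparison.

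In the Itga1 Xcl1 cluster Klra3 also differed in direction between sites, with a ratio of 0 in micrometastasis (0 and 30 UMIs) and 3.59 in macrometastasis (22 and 8 UMIs). This difference was not tested either.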

How the results depend on the processing

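No paired analysis within a site was possible because each group had 1 library and so no replicate numbers to pair, and leaving out a library leaves no group to compare. Tim3-KD and Ctrl could be paired over the 3 sites, but a fit with site as a block was not run. Of 26 ratios past the fold, 7 stayed past it under every alternative that gave a value, and 3 turned, all in Cxcr6 T-like cells. For Tim3-KD against Ctrl the alternatives counted include the minimum of 20 UMIs itself, which every call already met, so it could not change one. The other alternatives were not held to that minimum. When cells were called one by one from markers, with or without cells holding Trbc UMIs (a form added after seeing the data, since the planned one kept 40 cells and the added one 457), all other T cells took the place of the Cxcr6 cluster. Klra3 in macrometastasis Tim3-KD against Ctrl then went from 0.434 to 1.21, Klra3 in macrometastasis against micrometastasis Ctrl from 2.35 to 0.581, and Cd160 in the latter from 2.27 to 0.97. In both forms 8 genes in place of 5 were highest in NK-like cells, which then included the cells of the Itga1 Xcl1 cluster that met the rule, with 3 classes compared. Values at least 2-fold higher in Tim3-KD, 17 of 80 with any UMI, were 4 of 54 and 4 of 63 in these forms and 11 of 59 with 20 UMIs. Those at most 0.5-fold, 12 of 80, were 7 of 70 at resolution 2 and 4 of 59 with 20 UMIs. Between sites 8 of 63 values were higher and 14 lower, where 22.5% of all genes with any UMI were higher and 17.5% lower. These became 2 and 4 of 36 and 2 and 4 of 45 in the forms called one by one, and 14 became 9 of 63 with means over cells. The sets differ in size, and shares over all genes were not taken for the reassigned cells or the means. The share of cells with at least 2 of the genes depended on depth. Without thinning and at 3000 UMIs it was 95.7% and 93.4% in NK-like, 86.7% and 80.9% in Itga1 Xcl1, 67.6% and 46.5% in CD8 T-like and 19.6% and 12.4% in Cxcr6 T-like cells. Cd160 in NK-like cells of micrometastasis was past the fold in 7 of 7 alternatives (2.25 to 4.67), the minimum of 20 UMIs among them. Of 36 levels by class, clustering with the 9 genes moved 0, cells of at least 3000 UMIs 1, resolution 2 4 and means over cells 5, while calling cells one by one moved 19 of 27, and 18 of 27 with Trbc allowed. The cap of the deposited scores limits Klra7 most, then Klri2 and Klra3 in NK-like cells.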

Other observations

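The cells led by Ctla2a and Cd34, progenitor genes, had a Cd244a UMI in 23.9% of 548 cells (9.18 CPM, 7.85 to 10.7). In dendritic cell-like cells the ratio of Tim3-KD to Ctrl for Cd244a had intervals that held 1, with 1.12 (0.663 to 1.84) for micrometastasis cells and 1.04 (0.591 to 1.77) for macrometastasis cells. In the cluster of T cells that held Cd79a, a B cell gene, Klre1 was at 54.4 CPM (42.5 to 68.6) and Klrc1 at 29.1 CPM (20.6 to 39.9). In CD4 T-like cells all 19 Klra3 UMIs lay in 1 cell.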
